A study of Homo sapiens with 15 samples.

Results

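Among the chromatin loops of LNCaP prostate cancer cells, 23474 loops were found in the H3K4me3 reference set and not in the H3K27ac set, spanned from 10 kb to below 1 Mb, and had no anchor at the promoter of a protein-coding gene. They were 4.64% of the 505995 different anchor pairs in the data and 11.2% of the 209669 pairs found in the H3K4me3 set alone. The rule took the anchor as the deposited interval of 1 kb. It took the promoter as the window within 2.5 kb of the canonical transcript's start, the 1 transcript per gene that the annotation marks as its representative. A further 1612 loops of this kind were 5 kb long and 694 were 1 Mb or longer, and these were left out. The members lay on 24 chromosomes, joined 25836 different anchors and had a median length of 155000 bp (quartiles 65000 and 315000 bp).

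LNCaP is a cell line from a lymph node metastasis of prostate cancer that responds to androgen. All cells, vehicle included, were kept in phenol red free medium with 10% charcoal stripped serum for 3 days, which removes steroid hormones. Ethanol vehicle was then given for the 0 m sample, and the androgen dihydrotestosterone (DHT, 10 nM) for the others, which were taken after 30 m and after 4, 16 and 72 h. HiChIP, which joins nearby pieces of chromatin and pulls down those that carry a histone mark, was labelled with 2 samples per time for H3K27ac and 1 for H3K4me3. The files hold 1 value per loop, mark and time, so no comparison has a replicate check, and time cannot be told apart from library. In such bulk samples a contact in fewer cells and a weaker contact in each cell cannot be told apart either. All intervals are exact 95% intervals and cover counting error only.

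H3K4me3 is a histone mark of active transcription starts and is strongest at promoters rich in CpG, whereas H3K27ac marks active promoters and enhancers alike. Long non-coding RNA (lncRNA) genes have promoters of their own, which carry H3K4me3 when in use. Many coding genes also start from several promoters, and the canonical transcript names only 1 of them. The question for these loops was which of them lie at such starts. An anchor was counted at a lncRNA start, or at an alternative coding start, when it overlapped the window within 2.5 kb of any transcript start of a lncRNA gene, or of a non-canonical coding transcript.

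The sequences that lie just before the starts with the most loops differed widely in CpG content. The first set holds the 200 bases before 5 lncRNA starts, read 5′ to 3′ on the strand of the gene from the GRCh37 (hg19) assembly, with each CpG in capitals. The printed starts of the EPIC1 and LINC00898 pair on chromosome 22 had few CpG. Those of LINC03006, DLEU2 and LINC01572 were CpG-dense. Where starts of a gene tied for the most loops, the 1 with the lowest coordinate was printed. EPIC1 had 40 starts with loops, so its other starts may differ in CpG.
EPIC1, chr22:48026376-48026575, plus strand, 1 CpG: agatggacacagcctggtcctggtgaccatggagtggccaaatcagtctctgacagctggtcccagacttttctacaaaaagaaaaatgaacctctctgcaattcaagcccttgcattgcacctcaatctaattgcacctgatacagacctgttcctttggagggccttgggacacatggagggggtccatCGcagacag
LINC00898, chr22:48025652-48025851, minus strand, 3 CpG: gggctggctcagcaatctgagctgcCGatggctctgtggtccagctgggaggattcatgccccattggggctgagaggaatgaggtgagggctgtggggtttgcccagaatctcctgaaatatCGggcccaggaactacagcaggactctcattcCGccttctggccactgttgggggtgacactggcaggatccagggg
LINC03006, chr7:65215926-65216125, minus strand, 26 CpG: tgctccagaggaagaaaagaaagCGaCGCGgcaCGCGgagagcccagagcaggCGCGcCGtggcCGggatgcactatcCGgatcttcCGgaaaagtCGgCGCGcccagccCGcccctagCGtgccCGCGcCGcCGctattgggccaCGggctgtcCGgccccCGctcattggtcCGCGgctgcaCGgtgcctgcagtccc
DLEU2, chr13:50656099-50656298, minus strand, 14 CpG: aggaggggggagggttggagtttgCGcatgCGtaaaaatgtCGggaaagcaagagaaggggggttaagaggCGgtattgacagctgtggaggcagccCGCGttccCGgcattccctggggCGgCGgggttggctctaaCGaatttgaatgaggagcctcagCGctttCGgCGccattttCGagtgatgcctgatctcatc
LINC01572, chr16:72698847-72699046, minus strand, 15 CpG: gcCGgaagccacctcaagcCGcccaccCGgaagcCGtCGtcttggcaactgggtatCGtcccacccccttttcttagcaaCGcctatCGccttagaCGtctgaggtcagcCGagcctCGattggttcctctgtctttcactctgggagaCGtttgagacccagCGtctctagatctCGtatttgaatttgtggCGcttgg

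The second set holds the 200 bases before 3 alternative coding starts, where RERE and PRKACB were CpG-dense and ZFHX3 was not. The last sequence is the 200-base stretch with the most CpG inside an anchor of 31 loops that had no annotated start. It was chosen after its values were seen, because of its CpG content.
RERE, chr1:8483727-8483926, minus strand, 35 CpG: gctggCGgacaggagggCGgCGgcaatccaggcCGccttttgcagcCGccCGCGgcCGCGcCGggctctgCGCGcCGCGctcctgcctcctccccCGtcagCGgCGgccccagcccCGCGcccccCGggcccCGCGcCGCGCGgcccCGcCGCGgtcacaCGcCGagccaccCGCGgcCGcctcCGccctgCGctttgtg
PRKACB, chr1:84543545-84543744, plus strand, 27 CpG: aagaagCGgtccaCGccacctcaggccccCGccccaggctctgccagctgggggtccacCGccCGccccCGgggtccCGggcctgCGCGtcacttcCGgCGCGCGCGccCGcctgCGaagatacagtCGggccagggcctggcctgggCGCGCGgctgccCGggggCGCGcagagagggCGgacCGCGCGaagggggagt
ZFHX3, chr16:73093598-73093797, minus strand, 3 CpG: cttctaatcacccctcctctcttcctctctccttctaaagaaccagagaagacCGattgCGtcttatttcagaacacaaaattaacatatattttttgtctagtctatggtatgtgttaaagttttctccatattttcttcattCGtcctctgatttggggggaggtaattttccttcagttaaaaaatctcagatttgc
No annotated start, chr11:75947371-75947570, plus strand, 21 CpG: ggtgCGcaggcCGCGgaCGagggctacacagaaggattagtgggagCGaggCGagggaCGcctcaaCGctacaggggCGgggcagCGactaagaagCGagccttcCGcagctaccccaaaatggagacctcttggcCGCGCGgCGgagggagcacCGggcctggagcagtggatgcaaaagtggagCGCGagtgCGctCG

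The deposited contact values could be turned back into read pairs, and the H3K4me3 libraries held 2153262 to 4115072 pairs over all loops, except the 4 h library with 10675614. The H3K27ac tables held 2475168 to 4308555. Per library, the members took 2.28% to 3.08% of the H3K4me3 pairs, with a median of 1 to 6 pairs per member, so single members were read with low precision. The loop sets carried the luminal prostate label: the promoters of KLK3, KLK2, TMPRSS2, HOXB13, FOXA1, KRT8 and KRT18 had 7 to 68 loops each, against 0 to 3 for ALB, MYOD1, GFAP, INS and PTPRC.

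With windows of 2.5 kb, 58.8% of the members had an anchor at a lncRNA or alternative start. A lncRNA start lay at 38.2% of them (8967 loops, interval 37.6% to 38.8%), and an alternative coding start at 30.2% (7091 loops, 29.6% to 30.8%). With windows of 1 kb these shares were 24.2% and 16.9%, which together no longer made up most members. Both kinds were present in 9.57%, and either kind at both anchors in 7.14%. Starts of other genes alone, such as pseudogenes and small RNAs, accounted for 5.27%. No start of these kinds lay at 35.9% (8425 loops), called without an annotated start. Starts of transcripts of coding genes that are not classed as coding were not counted for this, and with them the share was 28.8% (6751 loops). Where starts lie close together a loop cannot be assigned to 1 of them, since the contact map has bins of 5 kb.

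The same shares were lower in loops without a coding promoter that were found in the H3K27ac set alone. Of the 141524 such loops found in the H3K27ac set alone, 13.8% had a lncRNA start and 11.1% an alternative start, and 70.0% had no annotated start. The members exceeded them in both shares on 24 of 24 chromosomes. The 9550 loops without a coding promoter that were in both sets stood closer, with 34.8% and 28.2%. Against these the members were higher on 14 of 24 chromosomes for lncRNA starts and on 16 of 24 for alternative starts. Counted once per anchor this order turned, with 9.46% and 7.95% of the member anchors against 11.7% and 9.60% of those of the loops in both sets. Over all 549678 bins of the genome without a coding promoter, 4.19% lay at a lncRNA start and 2.86% at an alternative start. Loops that share an anchor are not independent, so these shares are descriptions, with no test. Each called loop also needed an anchor in a region enriched for its mark, so the sets differ in this by construction.

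**Figure D1:**
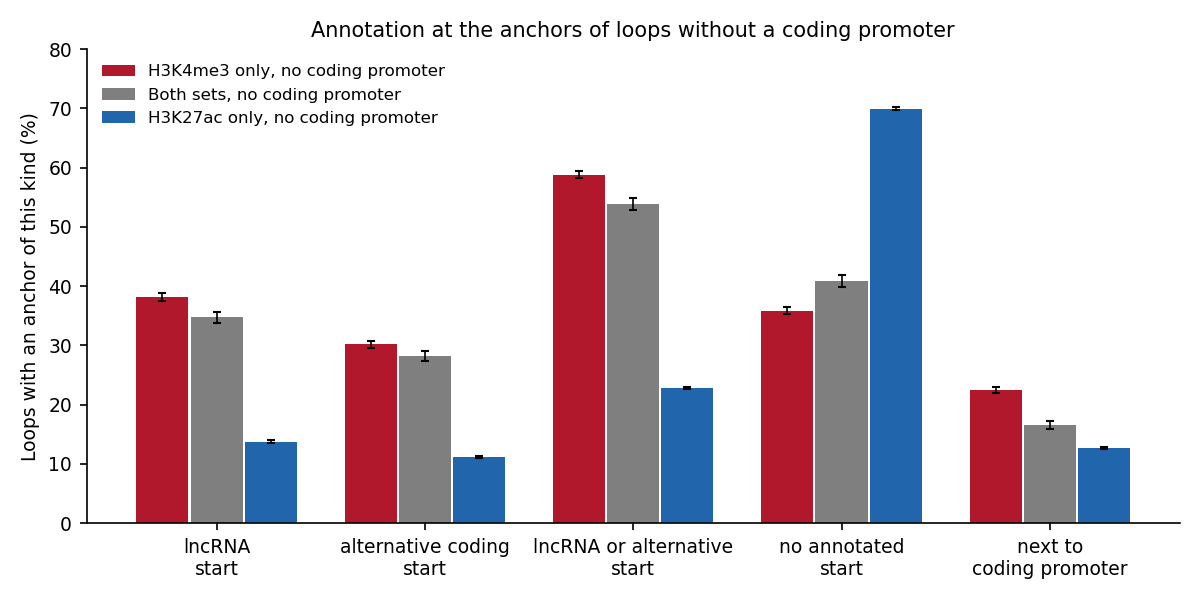
Percent of loops with at least 1 anchor of each kind, for loops without a coding promoter in the H3K4me3 set only (23474), in both sets (9550) and in the H3K27ac set only (141524). Bars are shares and lines exact 95% binomial intervals. The first group exceeds the last 38.2% to 13.8% at lncRNA starts and 30.2% to 11.1% at alternative starts, and is lower, 35.9% to 70.0%, for no annotated start.

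Part of the members lay just beyond a canonical promoter. In 22.5% (5282 loops) an anchor was within 1 more bin of 5 kb of a coding promoter window, against 16.6% of the loops in both sets and 12.7% of those in the H3K27ac set alone. Several anchors with many loops were only just outside the window: those by SEMA6A, ATP8B1, STT3B, NR4A2, SETBP1 and SOX4 lay 2519, 2547, 2584, 2768, 2853 and 3019 bp from the canonical start. Without all such loops the lncRNA share was 39.0% and the alternative share 24.8%. In addition, 36.2% of the members (8493) had both anchors within 1 bin of those of an H3K27ac loop, so absence from that set means absence of the identical pair.

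The loops were gathered on few anchors, and the anchors with most loops were mostly at starts. The calls needed at least 1 anchor in a region enriched for the mark, so this pattern is not independent of the calling. The median anchor had 1 loop, while 541 anchors with 10 or more held 39.9% of the members (9367 loops) and 142 with 20 or more held 17.8%. A lncRNA start lay at 6.61% of the anchors with 1 loop, 12.5% with 2 to 4, 31.0% with 5 to 9, 43.4% with 10 to 19 and 60.6% with 20 or more (86 of 142, interval 52.0% to 68.7%). The share at alternative starts went over the same classes from 5.24% to 38.0%. Of the 142 anchors, 118 (83.1%) were at either kind. In the H3K27ac-only loops without a coding promoter, either kind was present at 9.04% of the anchors with 1 loop and at 16.5% of the 1032 with 20 or more. The loops in both sets showed the same course as the members, from 14.9% at 1 loop to 79.8% at 10 to 19 and 15 of 16 anchors with 20 or more. A share per loop also exceeds a share per anchor because a loop has 2 anchors.

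Anchors with many loops were more often rich in CpG, a property the rule did not use. An anchor was called rich when its GC content was at least 0.5 and its ratio of observed to expected CpG at least 0.6. This held for 2.31% of the member anchors (interval 2.14% to 2.51%), for 0.385% of all bins without a coding promoter, and for 16.4% of the bins with one. By loops per anchor the share was 0.964%, 4.04%, 11.6%, 18.0% and 23.2%, so the class with 20 or more was above the bins with coding promoters. Over the 5 kb bin these shares were lower, with 0.297%, 1.19%, 4.19%, 9.02% and 14.8%. Bins with a coding promoter that were loop anchors then had 10.5%. Among anchors with 10 or more loops, 21.0% of the 405 at a lncRNA or alternative start were rich in CpG and 15.7% of the 127 at no annotated start. In the H3K27ac-only loops, 1.48% of the 4790 anchors with 10 or more loops were. Over all anchors of the loops in both sets the share was 3.33%, above that of the members.

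**Figure D2:**
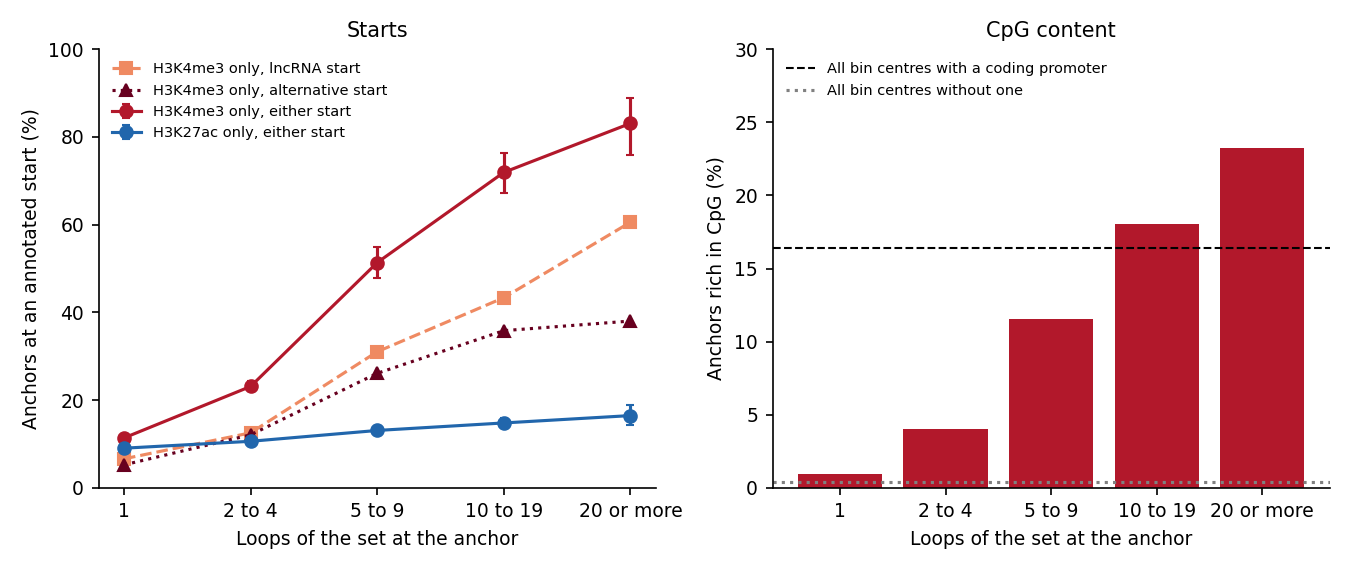
Left, percent of anchors at a lncRNA start, an alternative coding start or either (y axis) by the number of loops of the set at the anchor (x axis). Lines on the points for either kind are exact 95% intervals. Right, percent of member anchors rich in CpG for the same classes, with the levels over all bin centres as horizontal lines. The share at either start goes from 11.4% to 83.1% in the H3K4me3-only loops and from 9.04% to 16.5% in the H3K27ac-only loops, and the CpG-rich share from 0.964% to 23.2%.

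In all, 2433 lncRNA genes, 13.0% of the 18702 annotated, had a member at a start, and 350 of them had 10 or more. The rule takes no anchor in coding promoter windows, and 15618 of the lncRNA genes had a start outside them. The 10 genes with the most loops, named by a rule of rank, made up 7 groups, because several start next to each other and share their loops. EPIC1, a lncRNA named for its epigenetic activation in cancers, and LINC00898 shared 1 anchor at chr22:48027001-48028000 with 74 loops, the most of all. The nearest canonical coding start, that of TAFA5, was 857365 bp away. Contact summed over the 74 loops, in the deposited TMM-scaled unit, was 65.4, 66.3, 65.3, 65.5 and 59.1 in H3K4me3 over the 5 time points in order. The intervals of the log2 ratios to 0 m included no change at every time, and the ratio at 72 h was -0.15 (-0.42 to 0.13). With equal library totals the ratio at 4 h was -0.23 (-0.44 to -0.01). In H3K27ac the same loops summed to 18.2, 23.4, 20.1, 13.2 and 15.0. Of all 114 loops at this anchor, 2 reached a coding promoter.

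LINC03006 and ENSG00000291124 start head to head on chromosome 7, at 65215925 and 65216024, and shared the anchor chr7:65217001-65218000 beside the start of the pseudogene CCT6P1, where reads from near-identical copies could be split. Their 66 and 63 loops were nearly the same ones. For LINC03006 the summed H3K4me3 contact was 61.8, 76.5, 79.2, 61.5 and 67.1 over the time points in order. It was highest at 30 m and 4 h, with log2 ratios to 0 m of 0.31 (0.03 to 0.58) and 0.36 (0.15 to 0.58). All loops had 0.22 at 4 h, and with equal totals the 4 h ratio was 0.14 and its interval (-0.08 to 0.35) included no change. DLEU2, which hosts the microRNAs miR-15a and miR-16-1 and is often deleted in leukaemia, had 62 loops from 3 anchors. Its contact was 49.4, 51.2, 57.0, 52.0 and 52.5, with intervals that included no change at every time.

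The ZFHX3 region on chromosome 16 held 2 of the anchors with most loops. ZFHX3 encodes a homeobox transcription factor known as a tumour suppressor in prostate cancer. The anchor at chr16:73092001-73093000 had 59 loops and lay at a ZFHX3 start 11570 bp from the canonical one, as well as at the lncRNA ENSG00000271009. Its H3K4me3 contact was 67.1, 69.0, 74.9, 76.9 and 69.3. Of the 20 anchors with the most loops it alone had more H3K27ac than H3K4me3 contact at every time, with 110, 109, 103, 139 and 115. The H3K27ac ratio of 16 h to 0 m was 0.35 (0.16 to 0.54), where all loops had 0.25. With equal totals it was 0.10, with an interval (-0.08 to 0.29) that included no change. The anchor at chr16:72697001-72698000, at the paired starts of LINC01572 and ZFHX3-AS1, lay 384027 bp from the canonical ZFHX3 start and had 58 loops. Its H3K4me3 contact was 49.6, 49.5, 59.7, 45.2 and 49.7, against 11.2, 20.2, 13.5, 17.8 and 18.9 in H3K27ac.

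MIR99AHG, the host gene of miR-99a, let-7c and miR-125b-2, differed from the other lncRNAs in shape. Its 62 loops came from 20 anchors and had a median length of 110000 bp, against 477500 bp for EPIC1. Its H3K4me3 contact was 36.9, 40.6, 55.5, 43.9 and 50.8, with a ratio of 72 h to 0 m of 0.46 (0.13 to 0.79). In H3K27ac it summed to 269, 141, 234, 248 and 233, and was lowest at 30 m (log2 ratio to 0 m -0.93, -1.07 to -0.79). ENSG00000283480 had 68 loops at an anchor 3019 bp from the start of SOX4, an HMG-box transcription factor, and all of them counted as next to a coding promoter. Its H3K4me3 contact was 43.7 at 0 m, 68.3 at 30 m (0.64, 0.33 to 0.96), and 54.7, 53.0 and 58.5 later.

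**Figure D3:**
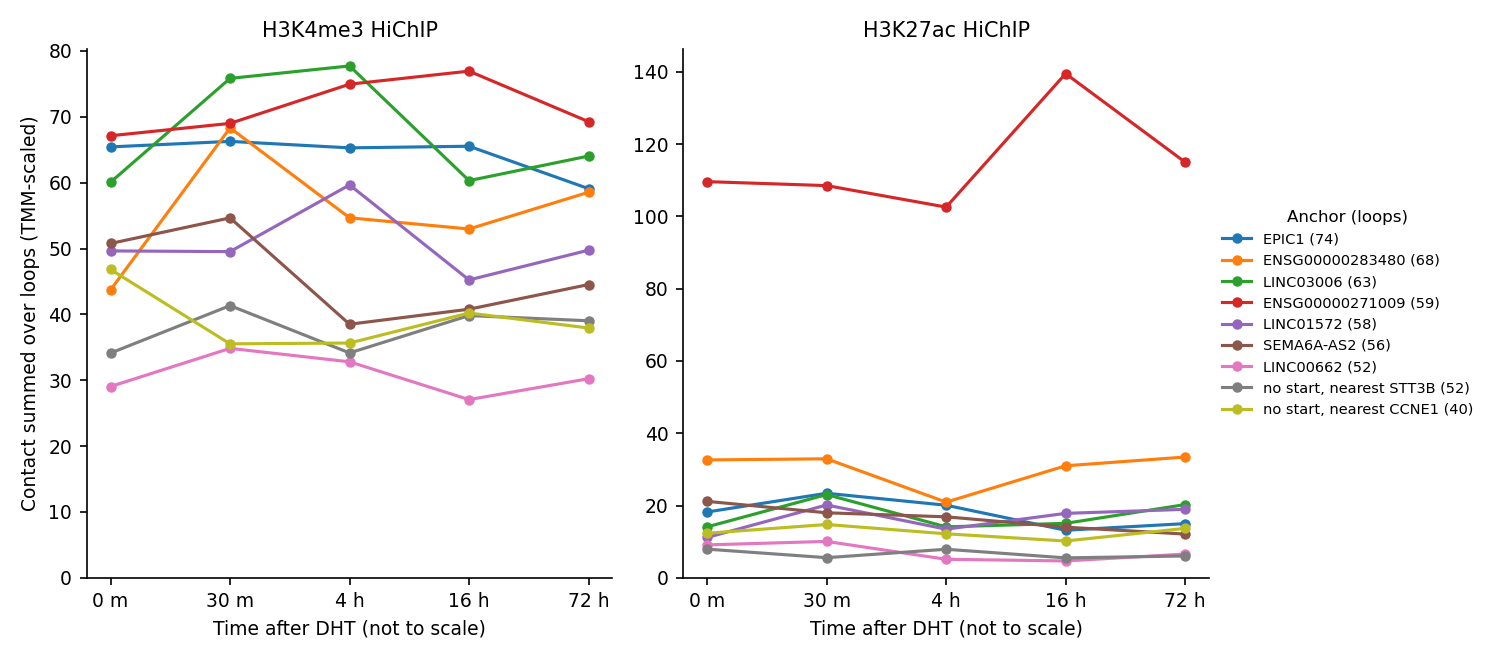
Contact summed over the members at 1 anchor (y axis, TMM-scaled as deposited) at each time (x axis, in order but not to scale), in H3K4me3 (left) and H3K27ac (right) HiChIP, for the 8 anchors with the most loops and the next without an annotated start. Each line is 1 anchor, named by a gene that starts there, with its number of loops in brackets, and no point has a replicate. H3K4me3 sums lie between 27.1 and 77.7, and in H3K27ac the anchor of ENSG00000271009 and ZFHX3 stands above the others at every time.

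By name, lncRNAs that host small nucleolar RNAs were covered most often. Members reached 20 of 28 genes named SNHG (71.4%, interval 51.3% to 86.8%), 26 of 81 microRNA hosts (32.1%), 393 of 2247 LINC genes (17.5%), 256 of 1838 antisense genes (13.9%) and 30 of 589 divergent transcripts (5.09%). Divergent transcripts start beside a coding promoter by definition, where the rule takes no anchors. Genes with no symbol made up most of the annotation and gave 1463 of 12992 (11.3%). SNHG6 led the snoRNA hosts with 34 loops.

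Of 28 annotated prostate lncRNAs in a list of known genes, 13 had a member at a start, and of 45 widely studied lncRNAs 29 did, beside 13.0% of all lncRNA genes. That share includes genes with no start outside the coding promoter windows and many without a symbol, so the listed genes were not matched to it. SCHLAP1, a lncRNA linked to aggressive prostate cancer, had 26 loops from 1 anchor, with H3K4me3 contact of 22.8, 33.8, 21.2, 30.2 and 31.3. SOCS2-AS1, an androgen-induced antisense RNA, had 20 loops with contact from 15.0 at 30 m to 25.5 at 16 h. PCA3, the lncRNA used as a urine marker of prostate cancer, and PCGEM1 had 1 loop each. In the second list KCNQ1OT1, the imprinted antisense RNA of the KCNQ1 locus, had 18 loops with contact from 27.1 to 31.5. FTX, a regulator of X inactivation, had 26 loops with 21.4, 20.8, 21.6, 29.2 and 24.2. SNHG5 had 18 loops and its contact at 16 h was above that at 0 m (26.9 against 16.4, log2 0.72, 0.26 to 1.18).

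Alternative starts of 1657 coding genes, 8.21% of 20176, carried members, and 213 genes had 10 or more. The alternative start with the most loops lay a median of 20200 bp from the canonical one (quartiles 5711 and 57235 bp). Whether these starts are in use was not measured here. RERE, an atrophin-family corepressor, had 47 loops, and the start with the most of them was 393973 bp from the canonical start. Their H3K4me3 contact of 82.9, 84.0, 69.0, 107 and 83.0 was the highest among the 10 coding genes, except at 4 h, when ZFHX3 and ARPC5L were higher. It was above the 0 m value at 16 h (0.36, 0.16 to 0.57) and below it at 4 h (-0.26, -0.46 to -0.07). ROBO1, a receptor for Slit guidance proteins, had 40 loops at a start 749454 bp from the canonical one, with 28.2, 28.0, 43.3, 29.4 and 23.6. No coding promoter was joined to its main anchor by any of the 53 loops there. BTBD3, 27170 bp away and with 44 loops, had 25.7, 30.7, 39.8, 20.7 and 34.9.

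EPC1, a subunit of the NuA4 histone acetyltransferase complex, had 40 loops at a start 31640 bp from its canonical one, with contact of 27.6, 41.7, 29.7, 32.5 and 32.7. PRKACB, a catalytic subunit of protein kinase A, had 38 loops, with the leading start 66209 bp away and contact of 49.1, 37.9, 53.2, 53.0 and 47.5. ARPC5L, an Arp2/3 complex subunit, had 38 loops 7075 bp away, with 53.9, 48.8, 70.6, 51.4 and 40.1. For the other 3 coding genes of the top 10, most loops were next to the coding promoter. These were SEMA6A with 58 loops (96.6% next to it), SETBP1 with 44 (95.5%) and ARID1B, a BAF chromatin remodelling subunit, with 37 (81.1%). PALLD and NEDD4L also had 37, with fewer read pairs, and 2.70% and 10.8% of their loops were next to the promoter. SETBP1 was higher at each time than at 0 m, with 16.1, 24.3, 29.1, 25.3 and 23.6 and intervals above 0 at all 4 times, on 57 read pairs at 0 m.

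In the list of 100 hallmark androgen response genes, 17 had a member at an alternative start, beside 8.21% of all coding genes. How many coding genes have an alternative start that the rule could take was not checked. TNFAIP8 had 21 loops at a start 87327 bp from the canonical one, with contact of 30.7, 24.9, 27.7, 31.5 and 33.5. SGK1, a kinase induced by steroids, had 20 loops with 5.36, 4.10, 7.45, 10.6 and 6.05, and was higher at 16 h than at 0 m (0.99, 0.21 to 1.82) on 19 pairs at 0 m. TSC22D1 had 18 loops with contact from 26.5 to 34.5. FKBP5, a chaperone of steroid receptors, had 3 loops, with 5.36 at 0 m against 1.74 at 16 h (-1.62, -2.95 to -0.41), again from 19 pairs. Of 30 luminal transcription factors 10 had members, beside the same 8.21%. GATA2 had 19 loops, 5285 bp from the canonical start, with 38.4, 36.5, 33.4, 42.3 and 43.2.

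The anchors with many loops and none of the counted starts lay at various distances from coding genes. The 5 with the most loops had 52, 40, 39, 37 and 36. Those with 52, 39 and 37 lay inside STT3B, an oligosaccharyltransferase subunit, NR4A2, a nuclear receptor, and ATP8B1, a lipid flippase, just beyond the promoter window. STT3B and ATP8B1 have transcripts that start there and are not classed as coding. The remaining pair lay 34103 bp from CCNE1, which encodes cyclin E, and 7754 bp from MYBL2, a cell cycle transcription factor. The anchor near CCNE1, at chr19:30337001-30338000, had H3K4me3 contact of 46.8, 35.5, 35.7, 40.2 and 37.9, and that near MYBL2, at chr20:42287001-42288000, 62.0, 74.1, 84.5, 71.3 and 70.4. The anchor on chromosome 11 whose sequence is given lay 29455 bp from WNT11 and had 52.5, 56.7, 58.0, 46.2 and 53.0.

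Of the 10 strongest single members, 8 had at least 1 anchor inside a coding gene. The highest mean H3K4me3 contact, 34.8, belonged to a loop of 15000 bp from an alternative start of SLC27A5, a bile acid ligase, to the body of ZBTB45. Its values ran from 21.7 at 72 h to 42.1 at 4 h. Among the 10, 4 shared 1 anchor inside USP54, at chr10:75332001-75333000, with mean contact of 25.1, 22.3, 20.5 and 20.2. Among the rest, 1 of 10000 bp lay inside PDE4DIP with a mean of 24.5, and 1 of 10000 bp ended at the anchor near MYBL2 with 19.5. Another joined the starts of NEAT1 and MALAT1 over 80000 bp, the RNAs of paraspeckles and nuclear speckles. Its contact was 16.9, 22.5, 15.0, 28.0 and 26.9 in H3K4me3 and 11.5, 8.64, 12.6, 12.5 and 13.9 in H3K27ac. A loop inside NFIX and another inside KIAA1522 had higher H3K27ac than H3K4me3 means, 40.4 against 20.5 and 29.7 against 21.7.

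The other ends of the loops from busy anchors were described in the same way. The calling needed a region enriched for the mark at only 1 of the 2 anchors. Of 9205 members with exactly 1 anchor of 10 or more loops, the other anchor was at no annotated start in 82.4% (beside 83.1% of all member anchors with 1 loop), at a lncRNA or alternative start in 11.5%, and inside a coding gene in 50.7%. It was an anchor of some H3K27ac loop in 53.5%. In all, 162 members joined 2 such anchors. The busy anchors themselves were seen in H3K27ac as well, since 141 of the 142 with 20 or more loops were an anchor of a loop in the H3K27ac set, against 58.2% of those with 1 member. Of the same 142, 116 (81.7%) also had an H3K4me3-only loop to a coding promoter, beside 80.4% of the anchors with 5 to 9 loops and 46.6% of those with 1. The anchor of LINC01535, which lies among zinc finger genes on chromosome 19, had 26 loops to coding promoters in either set, the most among the 20 busiest. Of these, 16 were H3K4me3-only.

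Absence from the H3K27ac set did not mean absence of H3K27ac contact. Per member, mean H3K27ac contact was 0.965, 0.886, 0.983, 0.936 and 0.903 over the time points, and mean H3K4me3 contact 0.833, 0.790, 0.822, 0.929 and 0.869. The members' H3K27ac values are uneven, with a median over members of 0.363 against 0.518 in H3K4me3. Of the members' read pairs in both marks, 53.3% were from H3K4me3, against 38.1% in the loops of both sets, 22.8% in the H3K27ac-only loops without a coding promoter, and 75.1% in the H3K4me3-only loops from a coding promoter to a distal anchor. All loops together had 55.6%, close to the members. The sets were defined by the calls in each mark, which follow its read pairs, so their order is not independent of that definition. These shares pool libraries of unequal depth, and in the TMM-scaled unit the members' mean over the times was higher in H3K27ac (0.935) than in H3K4me3 (0.849).

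Over the DHT course the mean member contact differed from 0 m by at most 0.16 on the log2 scale in either mark, with classes of members that went opposite ways. In H3K4me3 the log2 ratios to 0 m of the later times in order were -0.08, -0.02, 0.16 (0.14 to 0.17) and 0.06, where all loops had 0.02, 0.22, 0.14 and -0.13. In H3K27ac the members had -0.12, 0.03, -0.04 and -0.10, where all loops had 0.09, 0.07, 0.25 and 0.17. The strongest 1% of members weighed on the H3K27ac values, and without them the ratio at 16 h was -0.13 and that at 72 h -0.15. With lengths of 20 kb or more these were -0.14 and -0.16. Scaling every library to the same total of read pairs moved these ratios by -0.02, -0.22, -0.14 and 0.13 in H3K4me3 and by -0.09, -0.07, -0.25 and -0.17 in H3K27ac, as much as or more than most of the ratios themselves. This scaling shifts all loops of a library alike and leaves the gap between the members and all loops as it is. In H3K27ac the members were below all loops at the 4 times, and their own direction at 4 h flipped with the scaling. Pairs called in H3K27ac were left out by the rule, so this gap is not independent of it. In H3K4me3 they were below all loops at 30 m and 4 h, near them at 16 h and above them at 72 h.

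**Figure D4:**
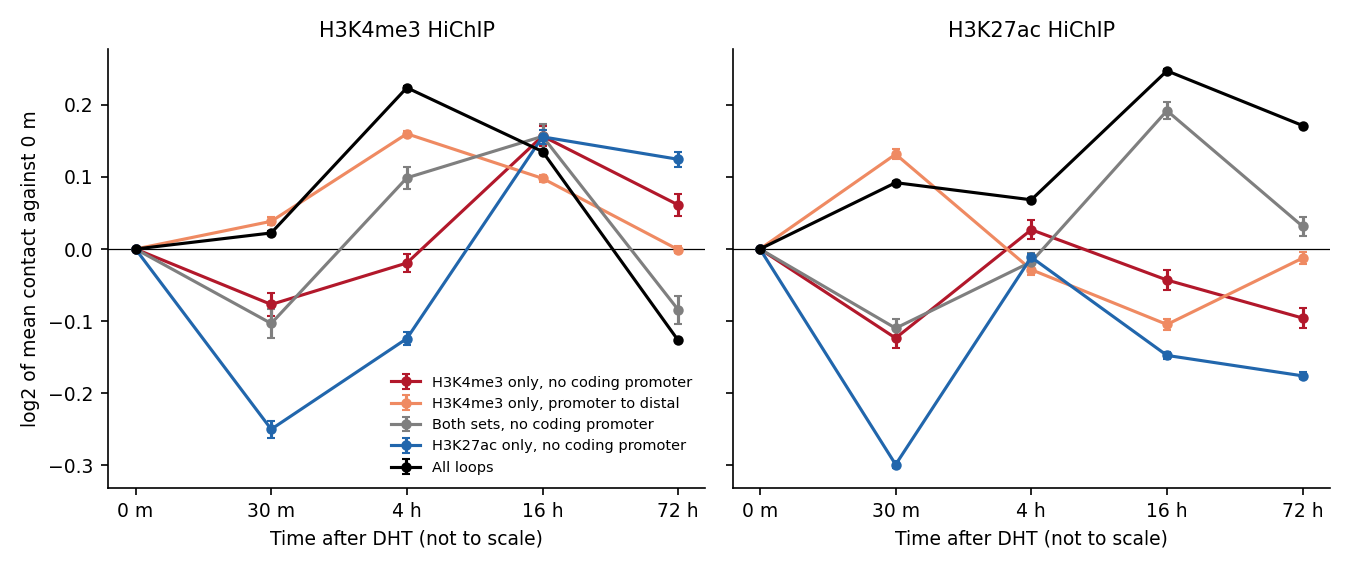
Log2 ratio of mean contact to the 0 m value (y axis) at each time after DHT (x axis, in order but not to scale) in H3K4me3 (left) and H3K27ac (right), for the members, 3 other kinds of loop and all loops. Lines are exact 95% counting intervals, with no replicates. In this TMM scaling the members are highest at 16 h in H3K4me3 with 0.16 and lie between -0.12 and 0.03 in H3K27ac, where all loops reach 0.25. With equal totals the members' highest H3K4me3 value is at 72 h, with 0.19, and H3K27ac reaches -0.29.

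The values varied with length and annotation. In H3K4me3 at 16 h the ratio was 0.10 for members under 50 kb, 0.16 from 50 to below 200 kb and 0.24 (0.21 to 0.27) from 200 kb up, and at 72 h 0.02, 0.04 and 0.15. At 4 h the signs differed, with -0.06, -0.08 and 0.12. They differed in H3K27ac too, where the same classes had 0.10, -0.18 and -0.19 at 16 h and 0.01, -0.21 and -0.17 at 72 h. By annotation, H3K4me3 at 16 h was at 0.25 (0.18 to 0.31) for members with other starts only, 0.21 for those with no annotated start, 0.14 with an alternative start only, 0.12 with a lncRNA start only and 0.10 with both of these kinds. At 4 h the members without a start were at -0.12 (-0.15 to -0.10), and those with a lncRNA start only at 0.02 (-0.01 to 0.04). H3K27ac at 30 m was lowest in members without a start, with -0.21, against -0.12 with other starts only, -0.07 with a lncRNA start only, -0.05 with an alternative start only and 0.07 with both kinds.

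Members past a 2-fold change were counted among those with at least 20 read pairs in both times together, and a call means only past this fold. In H3K4me3, 28 of 857 (3.27%) were higher and 54 (6.30%) lower at 30 m, where 3.15% and 3.79% of all loops were. At 4 h, with the deepest library, 486 of 3742 (13.0%) were higher and 273 (7.30%) lower, beside 15.2% and 3.36% of all loops. There 1 read pair is worth 0.0792 in contact, against 0.282 at 0 m, so loops reached the minimum largely through their 4 h pairs. These calls can thus favour loops that are high at 4 h. At 16 h 153 of 1605 (9.53%) were higher and 43 (2.68%) lower, beside 6.5% and 2.21%. At 72 h 46 of 1019 (4.51%) were higher and 57 (5.59%) lower, beside 2.4% and 5.86%. With at least 40 read pairs, 0.474% of the members were higher and 0.474% lower at 30 m, beside 0.78% and 0.969% of all loops. Both intervals were 0.012% to 2.61%, too wide to tell whether the larger share of lower members at 30 m holds there. With the same minimum the members were higher and lower in 9.18% and 3.37% at 4 h, beside 10.9% and 1.44% of all loops. At 16 h they were so in 5.28% and 1.92%, beside 2.44% and 0.632%, and at 72 h in 3.40% and 2.26%, beside 0.395% and 3.37%. With equal totals the balance turned at 4 h, to 9.91% higher and 12.3% lower (all loops 11% and 6.44%), and at 72 h, to 6.18% and 3.93% (3.46% and 3.9%). These differences were not tested.

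In H3K27ac the share of higher members was below that of all loops at each time. The rule leaves out pairs called in H3K27ac on reads merged over all times, so this gap is not independent of the rule. At 30 m 147 of 2177 (6.75%) were higher and 224 (10.3%) lower, beside 10.7% and 6.02% of all loops. At 4 h the members had 5.40% and 3.74% of 2113, beside 7.02% and 3.02%. At 16 h they had 11.6% and 7.30% of 2014, beside 18.3% and 5.9%. At 72 h they had 9.32% and 10.6% of 1684, beside 15.4% and 6.61%. The interval of the lower share at 4 h, 2.97% to 4.64%, included that of all loops. With at least 40 pairs the members were higher and lower in 4.35% and 7.13% at 30 m, beside 9.46% and 3.13%, and in 1.76% and 0.753% at 4 h, beside 4.12% and 0.602%. At 16 h they had 11.4% and 3.00%, beside 23.3% and 2.03%, and at 72 h 7.86% and 6.38%, beside 18.3% and 3.0%. With equal totals the balance turned at 16 h, to 6.41% higher and 12.8% lower (all loops 11.5% and 10.2%), and at 4 h, to 4.54% and 5.02% (5.91% and 3.7%).

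Summed over all loops of a start, H3K4me3 contact did not change 2-fold at any time in any of the 61 starts with at least 100 read pairs at every time. Here a start means a gene with the loops of all its starts summed, and genes with identical loops were counted once. Genes that share only part of their loops were counted apart, so some loops enter these counts more than once. At 30 m the interval was above 0 for 4 starts and below it for 1, and against the ratio of all loops, 0.02, it was above for 3 and below for 3. At 4 h it was so for 17 and 12, and against the ratio of all loops, 0.22, it was above for 4 and below for 26. At 16 h the log2 ratios ran from -0.61 to 0.69 with a median of 0.11, where all loops had 0.14. The interval was above 0 for 8 starts and below it for 4. RERE with RERE-AS1 and SEMA6A with SEMA6A-AS2 share loops, so these were 7 and 3 separate sets of loops. Against the ratio of all loops, the interval was above it for 5 starts and below it for 6. PVT1, the lncRNA neighbour of MYC, had the highest ratio, with 53 loops and contact of 47.1, 59.1, 64.3, 76.0 and 57.7 (16 h against 0 m, 0.69, 0.42 to 0.96). RERE-AS1 followed (54.1 to 78.3, 0.53), then EPB41L4A-AS1 (35.0 to 48.3, 0.47), the shared loops of IRF2BP2 and ENSG00000228830 (33.8 to 46.6, 0.46) and ENSG00000238280 (31.3 to 42.5, 0.44). In H3K27ac the loops of EPB41L4A-AS1 went the other way at 16 h (15.6 to 7.86, -0.99, -1.63 to -0.35). There PVT1 and ENSG00000228830 were also higher (0.26 and 0.36), and the intervals of RERE-AS1 and ENSG00000238280 included 0. The lowest ratios were those of LINC01315 (38.9 to 25.5, -0.61, -0.96 to -0.25) and the loops shared by LINC01311 and ENSG00000289481 (64.6 to 48.1, -0.42). SEMA6A-AS2 and SEMA6A, with 56 loops in common, had -0.32 and -0.31, and WIZ had -0.31, with an interval reaching 0.04.

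At 72 h the interval was above 0 for 6 starts and below it for 2, and against the ratio of all loops, -0.13, it was above for 8 and below for 0. The highest ratio was at alternative starts of GRB10, an adaptor of the insulin receptor (30.5 to 53.9, 0.82, 0.48 to 1.18), where 85.3% of the 34 loops were next to the coding promoter. NEAT1 had 43.2 at 0 m and 67.1 at 72 h (0.64, 0.34 to 0.94) on 4 loops. IRF2BP2 with ENSG00000228830, the loops shared by LINC00526, LINC00667 and ENSG00000265091, and MIR99AHG had 0.52, 0.50 and 0.46. The lowest ratios were in ARPC5L with ENSG00000289285 (53.9 to 40.1, -0.42) and in LINC01311 with ENSG00000289481 (64.6 to 49.2, -0.39). ARHGEF18 with its antisense RNA, BRD2 with ENSG00000263756, and SNHG29 with ENSG00000266651 had -0.27, -0.26 and -0.24, with intervals that included 0.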

How the data were processed

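HiChIP for H3K27ac (2 samples per time) and H3K4me3 (1 per time) was done in LNCaP cells, 15 samples in all. The authors trimmed reads with Trim Galore 0.5.0, aligned them to hg19 with HiC-Pro 3.1.0 and Bowtie2, and called loops at 5 kb with FitHiChIP on reads merged over all times, once per mark. At least 1 anchor of a loop had to lie in a region enriched for that mark. They deposited 10 tables of the same 574817 rows with a TMM-normalized contact signal per time. How the H3K27ac samples were joined is not given in the sources used here, so each H3K27ac value was taken as pooled. Loops are rows in 2 blocks, taken as the H3K27ac and the H3K4me3 set because their sizes are those in the study's methods.

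Each deposited signal, divided by a fixed step per table, gave a whole number (tolerance 0.01), taken as the read pairs behind each value. Promoters, lncRNA starts and alternative starts came from Gencode release 44 lifted to GRCh37. For the 282 of 20176 coding genes without a tagged canonical transcript, the coding one with the longest span was used. Shares have exact Clopper-Pearson intervals, and ratios exact conditional binomial intervals, both for counting error only. With 1 value per group no test was run and no p-value is given. Calls needed 20 read pairs in both times together and a 2-fold difference. Scripts used Python 3.11.15, pandas 2.3.3 and scipy 1.17.1 and were tested on simulated data.

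Named are the 10 lncRNA and 10 coding genes with the most loops, the 10 strongest loops, the 5 anchors without a start with the most loops, the 5 highest and 5 lowest H3K4me3 ratios at 16 h and 72 h among starts with at least 100 read pairs at every time, and genes of fixed lists. The members and lists were chosen with earlier results of these data known. Alternatives tried were other windows and transcript classes, anchors counted once, members near coding promoters or H3K27ac loops left out, equal library totals, other lengths, and other minimum read pairs. Some genes of the marker and gene lists are not reported here.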

Additional observations from a re-analysis of the deposited data

How the results depend on the processing

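The share of members at lncRNA starts, 38.2%, was 24.2% with a window of 1 kb, 43.9% with the 5 kb bin as the anchor, 9.46% with each anchor counted once, 39.0% without members next to a coding promoter, 42.4% without those near an H3K27ac loop and 34.6% with canonical lncRNA transcripts only. The share at alternative starts, 30.2%, was 16.9%, 37.9%, 7.95%, 24.8% and 30.1% under the first 5 of these, and 41.4% with all transcript types of coding genes. The share of anchors rich in CpG, 2.31%, was 0.817% over the 5 kb bin. With equal library totals, the log2 ratios of mean member contact at 30 m, 4 h, 16 h and 72 h were -0.10, -0.24, 0.021 and 0.19 in H3K4me3 and -0.22, -0.041, -0.29 and -0.27 in H3K27ac. With lengths of 20 kb or more, the log2 ratios of mean member contact at 30 m, 4 h, 16 h and 72 h were -0.069, -0.016, 0.16 and 0.076 in H3K4me3 and -0.17, -0.0021, -0.14 and -0.16 in H3K27ac. Without the strongest 1% of members, the log2 ratios of mean member contact at 30 m, 4 h, 16 h and 72 h were -0.084, -0.018, 0.16 and 0.084 in H3K4me3 and -0.15, 0.028, -0.13 and -0.15 in H3K27ac. The H3K27ac ratio at 4 h thus turned from 0.03 to below 0 with equal totals and with longer loops. With at least 10 read pairs, 8.42%, 19.8%, 15.2% and 10.7% were higher in H3K4me3 (all loops 7.7%, 21.2%, 12.6% and 7.68%) at these times and 13.6%, 12.3%, 8.23% and 11.3% were lower in H3K4me3 (all loops 8.67%, 6.59%, 6.04% and 10.3%). In the same setting 10.2%, 9.97%, 11.4% and 11.6% were higher in H3K27ac (all loops 13.7%, 10.1%, 16.4% and 16.3%) and 14.8%, 8.32%, 14.6% and 15.9% were lower in H3K27ac (all loops 11%, 8.54%, 12.6% and 12.1%). With at least 40, 0.474%, 9.18%, 5.28% and 3.4% were higher in H3K4me3 (all loops 0.78%, 10.9%, 2.44% and 0.395%) at these times and 0.474%, 3.37%, 1.92% and 2.26% were lower in H3K4me3 (all loops 0.969%, 1.44%, 0.632% and 3.37%). In the same setting 4.35%, 1.76%, 11.4% and 7.86% were higher in H3K27ac (all loops 9.46%, 4.12%, 23.3% and 18.3%) and 7.13%, 0.753%, 3.00% and 6.38% were lower in H3K27ac (all loops 3.13%, 0.602%, 2.03% and 3.0%). With equal totals, 3.03%, 9.91%, 6.23% and 6.18% were higher in H3K4me3 (all loops 2.86%, 11%, 4.1% and 3.46%) at these times and 6.42%, 12.3%, 4.49% and 3.93% were lower in H3K4me3 (all loops 3.87%, 6.44%, 3.6% and 3.9%). In the same setting 4.92%, 4.54%, 6.41% and 5.88% were higher in H3K27ac (all loops 8.53%, 5.91%, 11.5% and 10.8%) and 12.7%, 5.02%, 12.8% and 15.1% were lower in H3K27ac (all loops 7.68%, 3.7%, 10.2% and 9.47%). The cause was not tested. No paired analysis was possible because the tables give 1 value per mark and time and no replicate. The median member held 1 to 6 read pairs in a library, which limits what single loops can show.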

Other observations

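The anchors were searched on both strands for the forkhead motif TGTTTAC, which the rule did not use. It was found in 14.1% of the 25832 member anchors with sequence and in 14.9% of the 549678 bin centres of the same length, 1 kb, without a coding promoter. In anchors of H3K27ac-only loops without a coding promoter the share was 15.4%. A match is a description of the letters and not a bound site.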
